A study of Mus musculus with 35 samples.

Results

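The 10 genes described here encode the glucose transporter GLUT1 (Slc2a1) and 9 enzymes of glycolysis, namely hexokinase 2 (Hk2), glucose-6-phosphate isomerase (Gpi1), platelet-type phosphofructokinase (Pfkp), aldolase A (Aldoa), triosephosphate isomerase (Tpi1), glyceraldehyde-3-phosphate dehydrogenase (Gapdh), phosphoglycerate kinase 1 (Pgk1), enolase 1 (Eno1) and lactate dehydrogenase A (Ldha). They were taken by symbol, through the Ensembl identifiers, from a count table of 53379 genes, and each of the 10 was found in 1 row. The table holds RNA-seq of myeloid-derived suppressor cells (MDSC) from female C57BL/6 mice, 6 to 12 weeks of age, each with an orthotopic pancreatic tumor grown from T110299 cells. T110299 is a single line derived from a genetically engineered mouse model of pancreatic cancer, in which Ptf1a-Cre is expressed in pancreatic cells, and tumors grown from it stand for 1 tumor genotype. Treated mice received poly(I:C)c, a synthetic double-stranded RNA complexed with polyethylenimine, intravenously at 50 µg on day 18 and day 20 after implantation. Control mice are called untreated here. The methods of the study name glucose as the control, while its account of the sequencing says that these mice were left untreated. CD11b+ cells were enriched on magnetic beads and sorted into polymorphonuclear (PMN-MDSC, Ly6Clo Ly6G+) and monocytic cells (M-MDSC, Ly6Chi Ly6G-), and bulk tumor of untreated mice was lysed without sorting. Every group, spleen included, came from tumor-bearing mice.

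Glycolysis breaks glucose down to pyruvate in the cytosol and yields ATP without oxygen. Glucose enters through transporters such as GLUT1, hexokinase traps it as glucose-6-phosphate, phosphofructokinase commits it to the pathway, the lower enzymes harvest ATP and NADH, and lactate dehydrogenase returns NAD+ by turning pyruvate into lactate. Activated neutrophils and inflammatory macrophages depend heavily on this route, and many of its genes are classical targets of the hypoxia-inducible factor HIF-1, which binds DNA at a short core motif, ACGTG or GCGTG.

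Levels are given as CPM, counts per 1000000, after TMM scaling over 34 libraries, and comparisons between genes as FPKM, which divides by the summed exon length. Each group had 4 libraries, apart from PMN-MDSC from spleens of treated mice and M-MDSC from tumors of treated mice with 3 each. In the latter group a library with 10 counts was left out. The 30 MDSC libraries held 793070 to 4357105 counts and the 4 bulk tumor libraries 3771590 to 8886115. Libraries are numbered within their group only to name them, since the columns name no mouse. Per the labels the same mice gave both cell types and both compartments. No label ties a column to its mouse, and the order of the columns was not used to match them. Libraries were therefore compared as independent, without pairing by mouse, and p-values measure the spread between these libraries.

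Before the results, the labels were set against marker genes, because the cells labelled PMN-MDSC from tumor stood apart from their label. In untreated mice the 10 neutrophil markers summed to 1401 to 5182 CPM in PMN-MDSC from tumor and to 25366 to 48431 CPM in PMN-MDSC from spleen, and the ranges did not overlap. Ly6g, the gene of the sorting antigen, lay at 0 to 9.19 CPM in the tumor group and at 36.7 to 97.05 CPM in the spleen group. The 6 macrophage markers (complement C1q genes, Adgre1, Mrc1, Apoe) summed to 9330.2 to 13299 CPM in untreated PMN-MDSC from tumor, against 476 to 1387 CPM in those from spleen and 3451 to 8229 CPM in M-MDSC from tumor. With treatment the sums in PMN-MDSC from tumor were 4255 to 10692 CPM for neutrophil and 8108 to 17816 CPM for macrophage markers. The libraries labelled M-MDSC held 3031 to 4071 CPM of the 7 monocyte markers in untreated spleen and 3679 to 4281 CPM in untreated tumor. M-MDSC from spleen also held 3493 to 8649 CPM of neutrophil markers. Epithelial markers (Krt8, Krt18, Krt19, Epcam, Cdh1) summed to 126 to 711 CPM in untreated PMN-MDSC from tumor, 101 to 317 CPM in M-MDSC from tumor, 0.885 to 9.04 CPM in M-MDSC from spleen and 4549.8 to 6235 CPM in bulk tumor. Every comparison of tumor with spleen below therefore compares libraries that also differ in these sums, and their part in the results was not tested. Likewise, in RNA from a pool of cells, a change in the share of a cell type and a change in RNA per cell cannot be told apart.

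**Figure D1:**
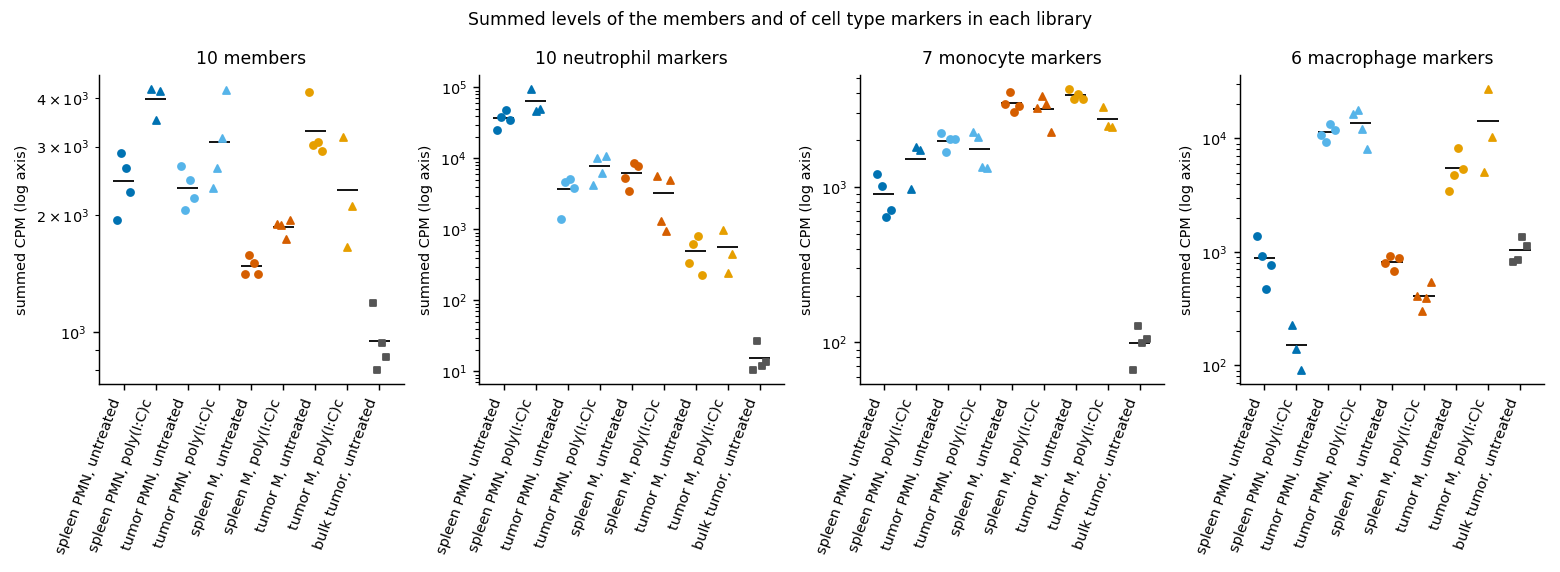
Each point is 1 library, placed by its summed CPM on a log axis, for the 10 members and for neutrophil, monocyte and macrophage markers; circles are untreated, triangles poly(I:C)c-treated, squares bulk tumor, and the black line is the group mean. PMN and M stand for PMN-MDSC and M-MDSC. The libraries of PMN-MDSC from tumor hold fewer neutrophil and more macrophage marker counts than those from spleen.

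Promoter sequences are shown for the 5 members that differed between tumor and spleen in both MDSC types of untreated mice: Slc2a1, Hk2, Pfkp and Tpi1, higher in tumor in both, and Gpi1, higher in tumor in M-MDSC and lower in PMN-MDSC. The sequences are RefSeq promoter windows on GRCm38.p6, limited to the 250 bases before the annotated start, 5′ to 3′ on the strand of the gene. Capitals mark ACGTG and GCGTG, the core letters that HIF-1 recognizes, on either strand (read as CACGT and CACGC on the other strand). The windows are chr4:119108495-119108744 on the plus strand for Slc2a1, chr6:82774455-82774704 on the minus strand for Hk2, chr13:6648772-6649021 on the minus strand for Pfkp, chr6:124814159-124814408 on the minus strand for Tpi1 and chr7:34230337-34230586 on the minus strand for Gpi1.
Slc2a1: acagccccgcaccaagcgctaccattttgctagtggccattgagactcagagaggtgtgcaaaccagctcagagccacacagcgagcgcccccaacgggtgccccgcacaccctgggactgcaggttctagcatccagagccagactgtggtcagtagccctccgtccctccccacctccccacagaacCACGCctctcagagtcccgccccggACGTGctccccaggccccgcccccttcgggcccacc
Hk2: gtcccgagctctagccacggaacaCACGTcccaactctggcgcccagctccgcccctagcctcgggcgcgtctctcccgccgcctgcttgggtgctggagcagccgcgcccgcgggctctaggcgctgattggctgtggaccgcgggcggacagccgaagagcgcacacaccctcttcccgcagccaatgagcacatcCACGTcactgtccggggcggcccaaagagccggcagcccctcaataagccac
Pfkp: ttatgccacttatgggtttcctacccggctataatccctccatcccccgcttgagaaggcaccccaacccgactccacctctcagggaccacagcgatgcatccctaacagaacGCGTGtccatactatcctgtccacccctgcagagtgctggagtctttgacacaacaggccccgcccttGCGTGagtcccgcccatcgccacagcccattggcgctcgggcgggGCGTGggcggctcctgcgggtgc
Tpi1: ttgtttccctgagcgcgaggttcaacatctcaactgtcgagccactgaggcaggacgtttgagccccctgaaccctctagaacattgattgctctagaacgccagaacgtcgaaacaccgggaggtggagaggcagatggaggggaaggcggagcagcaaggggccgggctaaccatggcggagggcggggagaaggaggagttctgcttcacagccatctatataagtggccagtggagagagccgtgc
Gpi1: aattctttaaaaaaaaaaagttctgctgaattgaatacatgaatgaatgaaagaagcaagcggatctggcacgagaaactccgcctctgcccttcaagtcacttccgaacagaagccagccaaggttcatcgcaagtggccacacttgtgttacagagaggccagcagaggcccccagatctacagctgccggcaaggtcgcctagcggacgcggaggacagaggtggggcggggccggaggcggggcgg

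Slc2a1 and Hk2 each held 2 matches, Pfkp held 3, and Tpi1 and Gpi1 held 0. Over all members, 8 of 10 had at least 1 match in at least 1 of their promoter windows, as did 41.5% of the 27025 genes and 38.6% of the 32851 windows in the table. A palindromic CACGTG counts on both strands. A match is a run of letters in a window, and no match says only that these letters are not in this window.

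For 3 members the row of the gene itself held only part of the counts that its transcript can give. The mouse genome carries processed copies of many glycolysis genes, that is, retrotransposed mRNAs that share long stretches with the parent, and fragments that match both can be assigned to either. Sequence copies were sought as annotated genes with at least 10% of their 50-base stretches in a transcript of a member. Gapdh had 1786 counts in its own row over the 34 libraries and 71329 on 90 copies, so that the row of Gapdh held 2.44% of the sum. The leading copies were the processed pseudogenes Gm12671 with 13713 counts and Gm7336 with 13570. Pgk1 had 7056 counts and its 2 copies 7149. Eno1 had 35793 counts and its 4 copies 35543, most of them on Gm4735 (19632) and Eno1b (15789). For the other 7 members the copies came to 3.38% of the counts of the member for Gpi1, 1.86% for Ldha, 0.130% for Tpi1 and none for Slc2a1, Hk2, Pfkp and Aldoa. Values of Gapdh, Pgk1 and Eno1 are therefore uncertain, and a call on them over the full set of libraries is given with the counts of the copies added as well. Libraries were left out in turn on the rows alone.

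**Figure D2:**
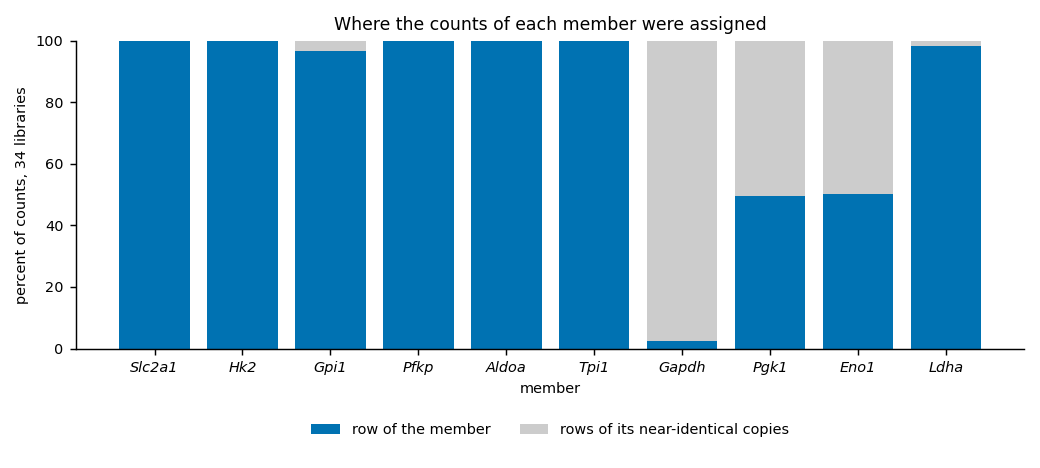
For each member, the bar gives the percentage of counts, summed over 34 libraries, in the row of the member (blue) and in the rows of its near-identical copies (grey), out of both together. Gapdh stands at 2.44%, Pgk1 at 49.7% and Eno1 at 50.2%, and Gpi1 at 96.7%, the lowest of the others.

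Summed over the rows of the 10 members, the transcripts made up 3298 ± 576 CPM in untreated M-MDSC from tumor and 1475 ± 83.9 CPM in untreated M-MDSC from spleen (SD, n = 4). In PMN-MDSC of untreated mice the sums were close to each other, 2352 ± 269 CPM in tumor and 2441 ± 412 CPM in spleen (SD, n = 4). With the copies added the sums were 4981 ± 894 and 2309 ± 153 CPM in M-MDSC and 3634 ± 408 and 3579 ± 670.1 CPM in PMN-MDSC (tumor and spleen, SD, n = 4), so that the order of the means turned in PMN-MDSC, within the spread. With treatment, the sum was 3973 ± 393 CPM in PMN-MDSC (SD, n = 3) and 1865 ± 88.9 CPM in M-MDSC (SD, n = 4) from spleen, and 3084 ± 810.3 CPM in PMN-MDSC (SD, n = 4) and 2314 ± 781 CPM in M-MDSC (SD, n = 3) from tumor. Bulk tumor had the lowest sum of the rows, 945 ± 170.0 CPM (SD, n = 4). Per exon length, and by the rows alone, Aldoa was the most abundant member in untreated M-MDSC of both compartments, with 94.3 ± 9.17 FPKM in spleen and 165 ± 24 FPKM in tumor (SD, n = 4). The length used takes in the exons of every annotated transcript, 2911 bases for Aldoa and 5379 for Eno1, and orders by FPKM rest on it. In CPM, Eno1 had the higher mean, 361 in spleen and 656 in tumor, against 275 and 479 for Aldoa. The order below it was not the same in the 2 compartments. In spleen, Eno1 (67.04 FPKM), Gpi1 (52.5 FPKM) and Ldha (43.6 FPKM) followed, and Slc2a1 stood near the end at 11.3 ± 1.92 FPKM. In tumor, Slc2a1 reached 78.5 ± 20.1 FPKM and came after Aldoa, Ldha (124 FPKM) and Eno1 (122 FPKM). In PMN-MDSC from spleen, Gpi1 reached 114 ± 20.01 FPKM without and 285 ± 53.6 FPKM with treatment, the highest level of any row of a member in any group. These orders change once copies are counted. With them Gapdh reached 109 ± 12 and 242 ± 70.8 FPKM in untreated M-MDSC from spleen and tumor and Eno1 129 ± 11.5 and 238 ± 31.9 FPKM (SD, n = 4), each with a mean above that of Aldoa, and Gapdh stood at 305 ± 47.3 FPKM in PMN-MDSC from spleens of treated mice (SD, n = 3), beside 294 ± 57.2 FPKM for Gpi1.

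**Figure D3:**
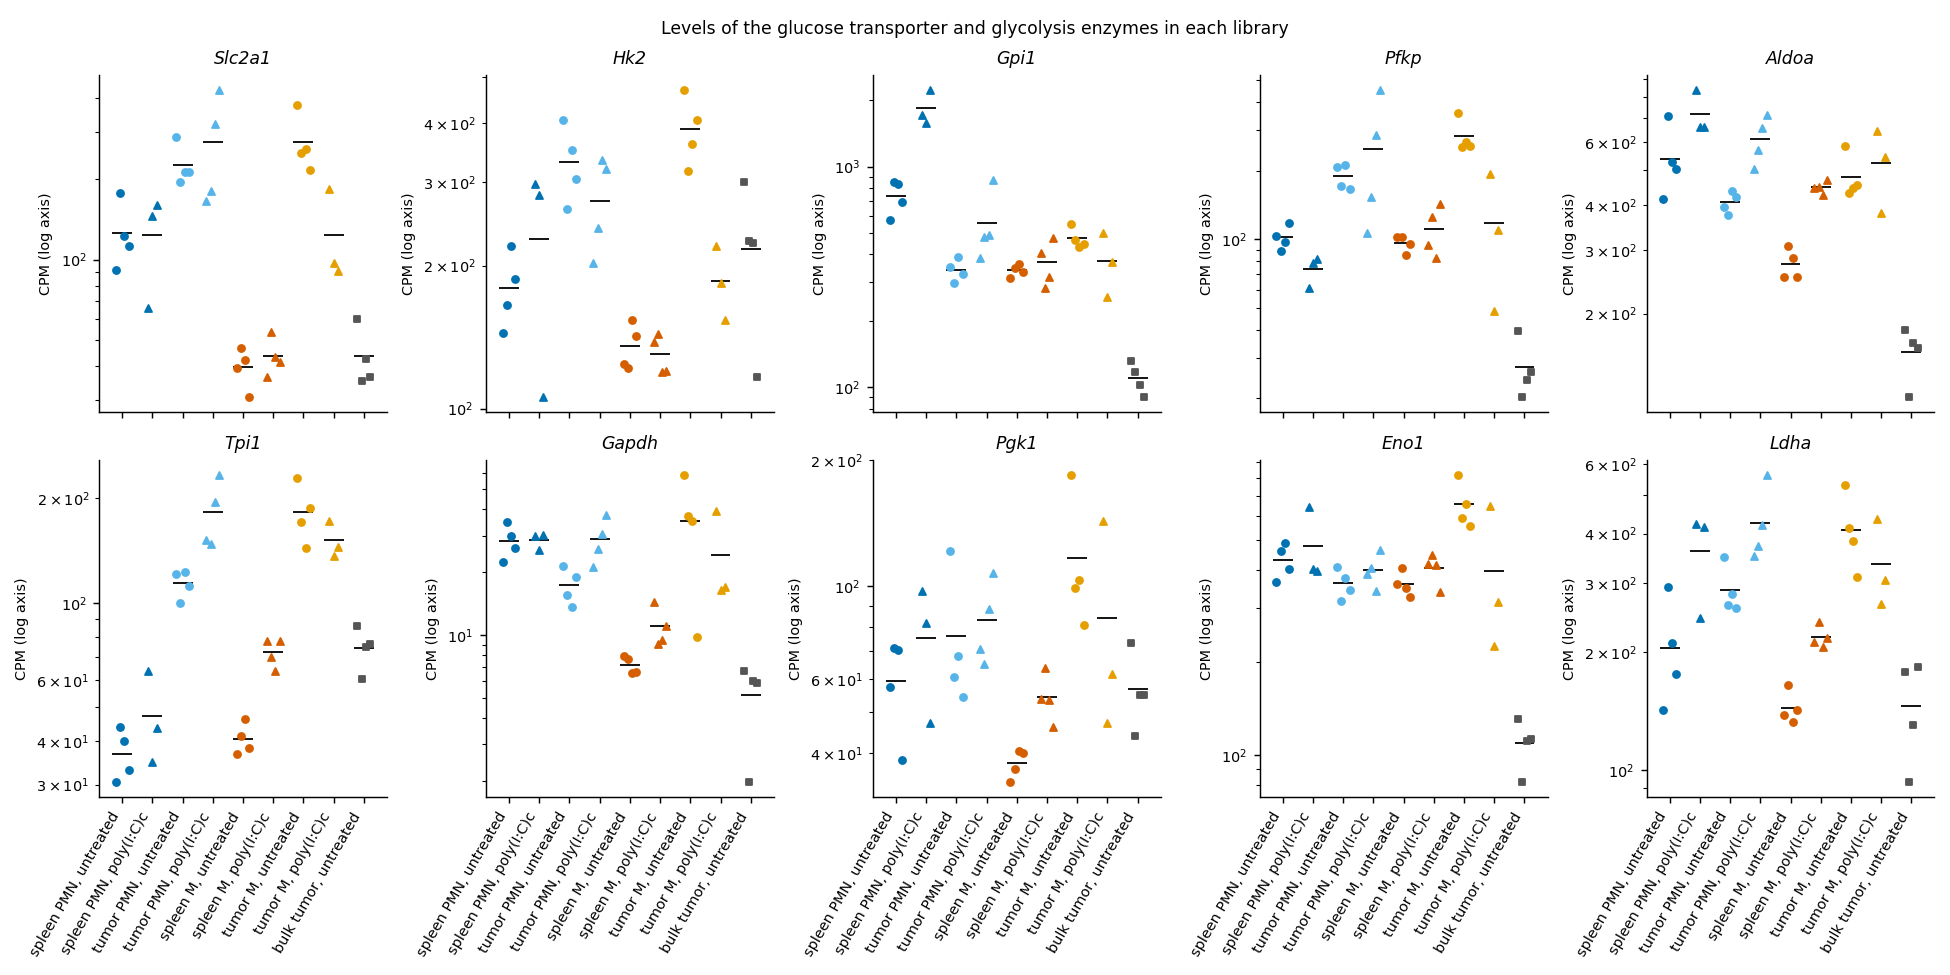
Each panel shows 1 member, with CPM on a log axis in every library of the 9 groups; circles are untreated, triangles treated with poly(I:C)c, squares bulk tumor, and the black line is the group mean. In untreated M-MDSC the tumor libraries (light orange circles) lie above the spleen libraries (dark orange circles) in all 10 panels, and Gpi1 is highest in PMN-MDSC from spleens of treated mice.

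In untreated mice, all 10 members were higher in M-MDSC from tumor than in M-MDSC from spleen, where 15.7% of the 8298 genes tested were higher. The median log2 difference of the members was 1.58, against 0.02 over all genes tested, and for each of the 10 the 4 tumor libraries lay above the 4 spleen libraries, where the groups lay apart, in either direction, in 31.1% of genes. Slc2a1, the transporter at the entry of the pathway, had 377, 249.8, 259 and 215 CPM in the tumor libraries and 39.4, 46.7, 42.1 and 30.7 CPM in the spleen libraries. Its lowest tumor library thus held several times its highest spleen library, and the log2 difference was 2.84 ± 0.19 (SE, adjusted p = 7.65e-07), the largest of the 10 in edgeR's quasi-likelihood test.

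Hk2, which phosphorylates glucose on entry, measured 469, 317, 362 and 405 CPM in tumor and 124, 122, 154 and 142 CPM in spleen, a log2 difference of 1.56 ± 0.15 (SE, adjusted p = 1.22e-05). Pfkp, a subunit of the enzyme at the committed step, measured 357, 252, 266 and 256 CPM against 102, 102, 84.9 and 94.98 CPM, with a log2 difference of 1.60 ± 0.14 (SE, adjusted p = 5.57e-06). Both early kinases were thus about as far apart between compartments, and in both the groups did not overlap. Gpi1, the isomerase between them, had the smallest difference of the 10, with 551, 464, 431 and 445 CPM in tumor, 312, 346, 362 and 334 CPM in spleen and a log2 difference of 0.52 ± 0.12 (SE, adjusted p = 0.00678).

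Among the enzymes that split and rearrange the sugar, Tpi1, which interconverts the triose phosphates, differed most. It had 229, 170.5, 144 and 187 CPM in tumor and 36.7, 41.5, 46.3 and 38.2 CPM in spleen, a log2 difference of 2.21 ± 0.17 (SE, adjusted p = 2.14e-06). Aldoa, the aldolase that makes those trioses, had 583, 432, 446 and 456 CPM and 253, 308, 285 and 253 CPM, with 0.85 ± 0.13 (SE, adjusted p = 0.000553). Ldha, which makes lactate, had 531, 413, 382 and 311 CPM in tumor and 138, 165, 133 and 142 CPM in spleen, with 1.54 ± 0.15 (SE, adjusted p = 1.67e-05). In these 3 genes the lowest tumor library again exceeded the highest spleen library.

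Of the members with near-identical copies, Gapdh, which reduces NAD+ at the triose step, differed by 2.37 ± 0.37 (SE, adjusted p = 0.000494) on the log2 scale in its own row. The difference was 1.19 ± 0.19 (SE, adjusted p = 0.000545) with the copies added, when its levels were 1001 ± 293 CPM in tumor and 450.4 ± 49.6 CPM in spleen (SD, n = 4). Pgk1, the first ATP-yielding step, differed by 1.67 ± 0.22 (SE, adjusted p = 0.000147), and by 1.38 ± 0.29 (SE, adjusted p = 0.00451) with copies. Eno1, which makes phosphoenolpyruvate, differed by 0.90 ± 0.14 (SE, adjusted p = 0.000400), and by 0.92 ± 0.13 (SE, adjusted p = 0.000325) with copies. All 3 stayed higher in tumor either way, the size for Gapdh being less than that of its row. The count of 10 held without each of the 8 libraries in turn. Beside this, the tumor libraries held 3451 to 8229 CPM of macrophage and 229.9 to 799.8 CPM of neutrophil markers and the spleen libraries 678 to 921 and 3493 to 8649 CPM.

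PMN-MDSC gave a mixed picture in untreated mice, with 4 members higher in tumor than in spleen, 1 lower and 5 that did not pass, at a background of 29.4% of 7971 genes higher and 29.7% lower. The median log2 difference of the members was 0.52, against 0.01 over all genes tested. Tpi1 was again far apart, with 121, 100.1, 123 and 112 CPM in tumor and 30.5, 43.8, 39.98 and 33.1 CPM in spleen and a log2 difference of 1.74 ± 0.18 (SE, adjusted p = 3.50e-05). Slc2a1 had 286, 195, 213 and 212 CPM in tumor against 91.2, 177, 122 and 113 CPM in spleen, with 0.95 ± 0.24 (SE, adjusted p = 0.00664). The spleen libraries of PMN-MDSC already held more Slc2a1 than those of M-MDSC, so that the tumor groups of both cell types lay closer to each other than the spleen groups did. Hk2 had 406, 263, 350.5 and 305 CPM and 144, 165, 220.1 and 188 CPM, with 0.99 ± 0.19 (SE, adjusted p = 0.00125). Pfkp had 208, 171, 211 and 165 CPM and 103, 88.8, 97.4 and 118 CPM, with 1.0 ± 0.15 (SE, adjusted p = 0.000292). In these 4 genes the tumor libraries lay above the spleen libraries, where 54.5% of genes had groups apart in either direction.

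Gpi1 went the opposite way. Its 4 libraries of PMN-MDSC from tumor held 350.1, 298, 389 and 325 CPM, below the 571, 847, 829.6 and 695 CPM of the 4 from spleen, a log2 difference of −1.01 ± 0.19 (SE, adjusted p = 0.00103). For Ldha the difference of 0.58 ± 0.25 (SE, adjusted p = 0.0613) did not pass, with 348, 264, 281 and 259 CPM in tumor and 142, 292, 211 and 176 CPM in spleen, where the groups overlapped through spleen library 2. Without that library it was 0.88, with an adjusted p of 0.00221. Aldoa (−0.31 ± 0.20), Pgk1 (0.46 ± 0.30) and Eno1 (−0.14 ± 0.17) had adjusted p-values of 0.207, 0.207 and 0.489. The difference in the row of Gapdh was −0.59 ± 0.25 (SE, adjusted p = 0.0585), which became −0.69 (adjusted p = 0.0494) without tumor library 1 and −0.68 (adjusted p = 0.0318) without spleen library 1. With the copies of Gapdh added the sign turned, to 0.34 ± 0.23 (SE, adjusted p = 0.226).

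**Figure D4:**
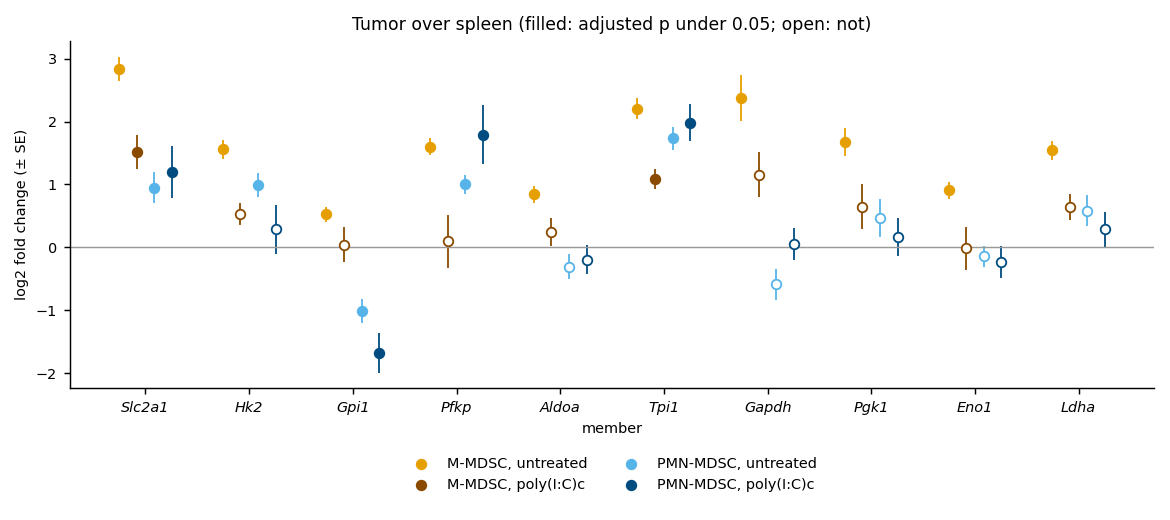
Log2 fold change of tumor over spleen for each member, with its standard error, in M-MDSC (orange untreated, brown treated) and PMN-MDSC (light blue untreated, dark blue treated); filled points passed an adjusted p under 0.05 and open points did not. All 10 orange points are filled and above 0, while Gpi1 is below 0 in PMN-MDSC with and without treatment.

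Whether the compartment difference was unlike between the cell types was tested by an interaction term over the 16 untreated MDSC libraries, counted as PMN-MDSC minus M-MDSC. It was below 0 for 7 members that passed, where 17.5% of 8278 genes were. With RLE scaling, which moved the genes past the threshold from 1640 above and 1445 below 0 to 1303 and 1791, 9 members passed. No member passed above 0, where 19.8% of genes did, so that for these 7 the tumor difference was smaller or opposite in PMN-MDSC. The median term was −0.996 over the members and 0.10 over all genes. Slc2a1 had a term of −1.78 ± 0.30 (SE, adjusted p = 0.000356) and Gpi1 of −1.43 ± 0.20 (SE, adjusted p = 6.94e-05). For Aldoa it was −1.04 ± 0.21 (SE, adjusted p = 0.00159) and for Ldha −0.85 ± 0.28 (SE, adjusted p = 0.0243). Hk2 (−0.48 ± 0.23), Pfkp (−0.51 ± 0.20) and Tpi1 (−0.37 ± 0.23), which were higher in tumor in both cell types, had terms that did not pass (adjusted p = 0.116, 0.0579 and 0.207). Among the members with copies, Eno1 had −0.95 ± 0.20 (SE, adjusted p = 0.00201) in its row and −0.96 ± 0.22 (SE, adjusted p = 0.00341) with copies. Gapdh had −2.86 ± 0.46 (SE, adjusted p = 0.000261) in its row and −0.86 ± 0.31 (SE, adjusted p = 0.0378) with copies. Pgk1 had −1.12 ± 0.39 (SE, adjusted p = 0.0315), lost with the copies at −0.96 ± 0.41 (SE, adjusted p = 0.0766). Leaving out single libraries moved several of these. Pfkp passed without any 1 of 8 libraries (PMN-MDSC from tumor 1 and from spleen 1, 2 and 3, M-MDSC from tumor 3 and 4 and from spleen 1 and 2), at terms from −0.67 to −0.55. Hk2 passed without PMN-MDSC from tumor 1 (−0.71) or from spleen 1 (−0.72), and Tpi1 without the latter (−0.61). Pgk1 was lost without PMN-MDSC from tumor 2, 3 or 4 or from spleen 2, or without M-MDSC from tumor 1 (adjusted p = 0.0528 to 0.0804), and without the last Ldha was lost too (adjusted p = 0.0568).

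The same reactions are also catalysed by paralogs, and these did not all follow the members. Slc2a3 encodes GLUT3, the transporter of neutrophils, and it had the reverse pattern of Slc2a1. It was lower in tumor than in spleen in untreated PMN-MDSC, at 97.9 ± 48.2 against 722 ± 182 CPM (SD, n = 4), a log2 difference of −2.79 ± 0.42 (SE, adjusted p = 0.000272). In M-MDSC it was also lower, with −1.82 ± 0.37 (SE, adjusted p = 0.00311), at 7.76 ± 4.44 and 26.05 ± 8.16 CPM (SD, n = 4). Hk3, the hexokinase of granulocytes, was lower in tumor in PMN-MDSC (−2.12 ± 0.21 (SE, adjusted p = 2.64e-05)), while in M-MDSC its difference was 0.07 ± 0.17 (SE, adjusted p = 0.815). Pfkl, the liver-type phosphofructokinase subunit, was higher in tumor in both, by 2.54 ± 0.17 (SE, adjusted p = 6.56e-07) in M-MDSC and 1.70 ± 0.23 (SE, adjusted p = 0.000151) in PMN-MDSC. Pgam1, the mutase between Pgk1 and Eno1, was higher in tumor in both too, by 1.30 ± 0.25 (SE, adjusted p = 0.00197) and 0.62 ± 0.22 (SE, adjusted p = 0.0352). Pkm, pyruvate kinase at the last ATP-yielding step, was higher in M-MDSC from tumor (1.04 ± 0.14 (SE, adjusted p = 0.000140)) and in PMN-MDSC had −0.57 ± 0.23 (SE, adjusted p = 0.0546). Hk1 had −0.12 ± 0.15 (SE, adjusted p = 0.611) in M-MDSC and −0.63 ± 0.17 (SE, adjusted p = 0.00842) in PMN-MDSC, and Slc2a6 1.14 ± 0.31 (SE, adjusted p = 0.0163) and −0.28 ± 0.28 (SE, adjusted p = 0.404). Of 26 paralogs and remaining steps, 10 were tested in M-MDSC, with 5 higher and 2 lower in tumor, and 9 in PMN-MDSC, with 2 higher and 4 lower. Eno1b, among the 5, is also a near-identical copy of Eno1, so that its counts can be those of Eno1, here and wherever these genes are counted. Ldhb was tested in M-MDSC alone, with −0.84 ± 0.32 (SE, adjusted p = 0.0712), and Pfkm, Aldoc and Eno2 were below the count minimum in both. The interaction term passed, below 0, for 4 of 9 tested, namely Hk3 (−2.08 ± 0.26), Pkm (−1.50 ± 0.25), Slc2a6 (−1.30 ± 0.45) and Pfkl (−0.73 ± 0.27).

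The gene lists around glycolysis are counted against 15.7% of all genes higher and 12.7% lower in tumor in M-MDSC, and 29.4% and 29.7% in PMN-MDSC. The listed hypoxia targets outside the pathway were higher in M-MDSC from tumor than from spleen in 10 of 11 tested genes, led by Vegfa, the vascular growth factor, at 6.08 ± 0.32 (SE, adjusted p = 1.41e-07). In PMN-MDSC, 5 of 11 were higher and 2 lower, and Vegfa differed by 3.99 ± 0.23 (SE, adjusted p = 1.76e-06). Hif1a, the oxygen-regulated subunit of HIF-1, was higher in tumor in both, by 2.72 ± 0.20 (SE, adjusted p = 1.48e-06) and 2.42 ± 0.24 (SE, adjusted p = 2.35e-05). Egln3, a prolyl hydroxylase that marks HIF subunits for degradation, was higher by 3.92 ± 0.26 (SE, adjusted p = 7.01e-07) in M-MDSC. Of 8 hypoxia regulators, 5 were higher and none lower in M-MDSC, and 4 were higher and 2 lower in PMN-MDSC. Slc16a3, the lactate exporter MCT4, was higher in M-MDSC from tumor (2.55 ± 0.20 (SE, adjusted p = 2.08e-06)), where 2 of 4 genes of lactate export were higher and none lower. In PMN-MDSC 2 of these 4 were higher and 1 lower, namely Emb, a partner of lactate transporters (−1.22 ± 0.16 (SE, adjusted p = 0.000111)), and Slc16a3 had −0.25 ± 0.24 (SE, adjusted p = 0.387). Pfkfb3, which makes the activator of phosphofructokinase, was higher in tumor in both cell types, by 1.64 ± 0.14 (SE, adjusted p = 4.88e-06) in M-MDSC and 0.49 ± 0.17 (SE, adjusted p = 0.0293) in PMN-MDSC. Its relative Pfkfb4 was lower in tumor in both, with −0.68 ± 0.13 (SE, adjusted p = 0.00256) and −2.29 ± 0.27 (SE, adjusted p = 6.60e-05), as was Txnip, a brake on glucose uptake, with −1.68 ± 0.17 (SE, adjusted p = 1.78e-05) and −1.84 ± 0.29 (SE, adjusted p = 0.000415). Pdk1, which holds pyruvate back from the mitochondria, was higher by 1.64 ± 0.30 (SE, adjusted p = 0.00157) in M-MDSC and 1.30 ± 0.23 (SE, adjusted p = 0.000705) in PMN-MDSC, in a list of pyruvate entry with 1 higher and 2 lower of 10 in M-MDSC and 2 higher and 2 lower of 8 in PMN-MDSC. The pentose phosphate pathway, a branch from glucose-6-phosphate, had 5 of 8 genes lower in tumor in each cell type and none higher, with G6pdx at −0.72 ± 0.13 (SE, adjusted p = 0.00133) in M-MDSC and −2.36 ± 0.22 (SE, adjusted p = 1.61e-05) in PMN-MDSC. Genes of the tricarboxylic acid cycle were higher in tumor in 1 of 17 in M-MDSC and 7 of 16 in PMN-MDSC, led in each by Idh2 (0.63 ± 0.15 (SE, adjusted p = 0.00689) and 2.23 ± 0.27 (SE, adjusted p = 7.35e-05)). In glycogen metabolism, 1 of 12 was higher and 2 lower in M-MDSC, led by Pgm1 (1.18 ± 0.22 (SE, adjusted p = 0.00184)), and 2 were higher and 5 lower in PMN-MDSC, led by Pygl (−2.08 ± 0.25 (SE, adjusted p = 7.90e-05)). Gluconeogenesis was hardly measured, with 2 of 8 genes tested in M-MDSC, 0 past the threshold (Pck2 at −0.86 ± 0.41 (SE, adjusted p = 0.142)), and 0 tested in PMN-MDSC.

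The compartments were also compared in treated mice, with 3 libraries from tumor in M-MDSC and 3 from spleen in PMN-MDSC. In M-MDSC, 2 of 10 were higher in tumor, at a background of 5.11% of 9026 genes, with a median log2 difference of 0.59 over the members and −0.01 over all genes. Slc2a1 had 183, 97.2 and 90.9 CPM in tumor and 36.5, 53.9, 43.4 and 41.7 CPM in spleen, with 1.51 ± 0.28 (SE, adjusted p = 0.0178). Tpi1 had 172, 136 and 145 CPM and 77.6, 69.8, 63.5 and 77.8 CPM, with 1.09 ± 0.16 (SE, adjusted p = 0.00775). In both genes the 3 tumor libraries lay above the 4 spleen libraries, and the call on Slc2a1 was lost without spleen library 1 (adjusted p = 0.0722) or 3 (adjusted p = 0.0594). Hk2 (0.54 ± 0.18), Ldha (0.64 ± 0.21) and the row of Gapdh (1.15 ± 0.36) also had groups that did not overlap, with adjusted p-values of 0.119, 0.117 and 0.106, where 22.4% of genes had groups apart. By DESeq2 5 members passed, all higher, where 9% of genes were. Of 10 paralogs and remaining steps tested, 0 passed in edgeR's test, and Pfkl had 0.87 ± 0.23 (SE, adjusted p = 0.0659).

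In PMN-MDSC of treated mice, 3 members were higher and 1 lower in tumor, where 28.2% and 25.4% of 8031 genes were. Tpi1 had 152, 148, 195 and 234 CPM in tumor and 63.7, 34.8 and 43.6 CPM in spleen, with 1.98 ± 0.29 (SE, adjusted p = 0.000786). Pfkp had 106, 153, 286 and 452 CPM against 61.2, 78.8 and 82.2 CPM, with 1.79 ± 0.47 (SE, adjusted p = 0.0120), and its tumor libraries were spread over a wide range. Slc2a1 had 166, 180.1, 319 and 429.7 CPM against 66.2, 146 and 159 CPM, with 1.20 ± 0.41 (SE, adjusted p = 0.0354). The 4 tumor libraries lay above the 3 spleen libraries in each, where 56.5% of genes had groups apart, yet the call on Slc2a1 was lost without any 1 of 5 of the 7 libraries (tumor 3 and 4 and each from spleen), at adjusted p-values from 0.0610 to 0.0955. Gpi1 was lower in tumor, with 387, 479, 488 and 868 CPM against 1714, 1568 and 2226 CPM and −1.68 ± 0.31 (SE, adjusted p = 0.00242). The same 4 genes, Slc2a1, Pfkp, Tpi1 and Gpi1, had passed in the same directions without treatment, in other libraries. Slc2a3 (−2.53 ± 0.32 (SE, adjusted p = 0.000409)), Hk3 (−1.61 ± 0.33 (SE, adjusted p = 0.00354)) and Hk1 (−1.02 ± 0.20 (SE, adjusted p = 0.00325)) were again lower in tumor and Pfkl higher (2.20 ± 0.30 (SE, adjusted p = 0.000555)).

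Treatment was compared with no treatment in 4 settings, and interferon-induced genes, the known response to this agent, were counted as a check: of 15 listed, 14 rose in PMN-MDSC of either compartment, 15 in M-MDSC from spleen and 5 in M-MDSC from tumor. In M-MDSC from spleen 4 members rose, at a background of 10.7% of 8827 genes, and the median log2 change was 0.32 over the members and −0.01 over all genes. Tpi1 rose from 36.7, 41.5, 46.3 and 38.2 CPM to 77.6, 69.8, 63.5 and 77.8 CPM, by 0.78 ± 0.13 (SE, adjusted p = 0.00288) on the log2 scale. Aldoa rose from 253, 308, 285 and 253 CPM to 448, 449, 427 and 472 CPM, by 0.66 ± 0.11 (SE, adjusted p = 0.00347). Ldha rose from 138, 165, 133 and 142 CPM to 213, 239, 205 and 218 CPM, by 0.55 ± 0.11 (SE, adjusted p = 0.00733). In each of these 3 the treated libraries lay above the untreated, where 25.4% of genes had groups apart. Pgk1 rose by 0.48 ± 0.12 (SE, adjusted p = 0.0239), a call that held with its copies (0.59 ± 0.16 (SE, adjusted p = 0.0263)) and was lost on leaving out any 1 of 6 of the 8 libraries (all but treated libraries 3 and 4), at adjusted p-values of 0.0528 to 0.0734. The row of Gapdh had 0.56 ± 0.22 (SE, adjusted p = 0.108), and with its copies, at 795 ± 40.1 against 450.4 ± 49.6 CPM (SD, n = 4), 0.79 ± 0.13 (SE, adjusted p = 0.00249). Slc2a1 (0.10 ± 0.17), Hk2 (−0.10 ± 0.12), Gpi1 (0.09 ± 0.18), Pfkp (0.17 ± 0.18) and Eno1 (0.12 ± 0.12) did not pass (adjusted p from 0.515 to 0.767). Neutrophil markers summed to 949.6 to 5671 CPM in treated and 3493 to 8649 CPM in untreated libraries. Macrophage markers (299 to 543 against 678 to 921 CPM) and erythroid markers (0 to 2.75 against 18.7 to 55.6 CPM) were lower with treatment, and fibroblast markers (4.76 to 8.49 against 2.44 to 4.62 CPM) higher, without overlap, and their part in these changes was not tested.

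Beside these, Pfkl rose in M-MDSC from spleen by 0.89 ± 0.11 (SE, adjusted p = 0.000661), Hk1 by 0.52 ± 0.16 (SE, adjusted p = 0.0488), Hk3 by 0.59 ± 0.13 (SE, adjusted p = 0.0106) and Slc2a6 by 1.72 ± 0.39 (SE, adjusted p = 0.0138), while Ldhb fell (−3.42 ± 0.45 (SE, adjusted p = 0.000871)), so that of 11 paralogs and remaining steps tested 4 rose and 1 fell. Pkm had 0.39 ± 0.13 (SE, adjusted p = 0.0582), Pgam1 0.26 ± 0.14 (SE, adjusted p = 0.218) and Slc2a3 was 19.2 ± 18.2 CPM with and 26.05 ± 8.16 CPM without treatment (SD, n = 4). The hypoxia targets outside glycolysis did not move one way, with 2 of 10 higher and 2 lower, led by Ndrg1 (−1.21 ± 0.27 (SE, adjusted p = 0.0137)). Of the hypoxia regulators, 1 of 7 fell, namely Egln1 (−0.77 ± 0.17 (SE, adjusted p = 0.0123)). Of 4 genes of lactate export, Slc16a3 rose by 0.70 ± 0.15 (SE, adjusted p = 0.00983), and Emb (−1.28 ± 0.15 (SE, adjusted p = 0.000448)) and Slc16a7 (−1.25 ± 0.26 (SE, adjusted p = 0.00817)) fell. Of 4 regulators of flux, Pfkfb3 rose by 0.88 ± 0.24 (SE, adjusted p = 0.0304), and Txnip (−0.79 ± 0.14 (SE, adjusted p = 0.00376)) and Pfkfb4 (−1.21 ± 0.22 (SE, adjusted p = 0.00444)) fell. Over all genes 8.96% fell. In the tricarboxylic acid cycle 3 of 17 rose, led by Mdh2 (0.65 ± 0.11 (SE, adjusted p = 0.00309)), and 1 fell. In the pentose phosphate pathway 2 of 8 fell, led by H6pd (−0.43 ± 0.12 (SE, adjusted p = 0.0326)), in glycogen metabolism 1 of 12 fell, namely Phka2 (−0.61 ± 0.11 (SE, adjusted p = 0.00451)), and Pdk3 (0.91 ± 0.30 (SE, adjusted p = 0.0601)) and Slc37a4 (−0.37 ± 0.26 (SE, adjusted p = 0.365)) did not pass.

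In M-MDSC from tumor most estimates had the opposite sign. Treated libraries had lower estimates than untreated ones for 9 of 10 members, of which Hk2 passed, where 1.06% of 8360 genes fell, and the median log2 change was −0.58 over the members and −0.001 over all genes. Of all genes tested, 49.96% had estimates above 0. Hk2 fell from 469, 317, 362 and 405 CPM to 220.0, 184 and 154 CPM, a log2 change of −1.11 ± 0.22 (SE, adjusted p = 0.0308), with groups that did not overlap, as in 19.4% of genes. The call was lost without treated library 3 (adjusted p = 0.134) or any 1 of the 4 untreated libraries (adjusted p = 0.0573 to 0.103). Slc2a1 had 183, 97.2 and 90.9 CPM with and 377, 249.8, 259 and 215 CPM without treatment, and its log2 change of −1.20 ± 0.30 (SE, adjusted p = 0.0615) did not pass. Pfkp had 194, 48.4 and 109.7 CPM and 357, 252, 266 and 256 CPM, with −1.32 ± 0.41 (SE, adjusted p = 0.112). Neither gene had overlapping groups. Aldoa (0.08 ± 0.23), Tpi1 (−0.32 ± 0.21), Ldha (−0.34 ± 0.25) and Gpi1 (−0.39 ± 0.25) had adjusted p-values of 0.446 to 0.896, and Gapdh, Pgk1 and Eno1, in their rows, of 0.258 to 0.554.

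The 3 treated libraries of M-MDSC from tumor were unlike each other. The members summed to 3177, 1656 and 2109.9 CPM in libraries 1, 2 and 3, in which the macrophage markers summed to 5013, 27417 and 10205 CPM. The library with the most macrophage marker counts thus had the fewest member counts, with 3 libraries only, and the part of these cells in the change was not tested. Monocyte markers summed to 2429.9 to 3272 CPM in treated and 3679 to 4281 CPM in untreated libraries, without overlap, and their part was not tested either. Ly6c2, the gene of the sorting antigen of M-MDSC, ranged over 2.86 to 602 CPM in these libraries. Without treated library 1, when 2.5% of genes were lower, 4 members passed, all lower: Hk2, Slc2a1 (−1.59, adjusted p = 0.0145), Pfkp (−1.88, adjusted p = 0.0259) and the row of Eno1 (−1.32, adjusted p = 0.0273). The library left out there was the treated one with the fewest macrophage and the most monocyte marker counts. Its macrophage sum alone lay within the untreated range of 3451 to 8229 CPM, and the part of this in the calls gained was not tested. With all 3 treated libraries, Hif1a fell, with −1.51 ± 0.26 (SE, adjusted p = 0.0224), as did Egln3, with −1.57 ± 0.28 (SE, adjusted p = 0.0254), while of 12 hypoxia targets outside glycolysis and 8 paralogs and remaining steps tested 0 passed (Vegfa at −1.37 ± 0.32 (SE, adjusted p = 0.0542) and Eno1b at −0.72 ± 0.26 (SE, adjusted p = 0.157) came nearest). In the other lists 0 genes passed, with Slc16a1 at −1.13 ± 0.30 (SE, adjusted p = 0.0753), Txnip at 1.29 ± 0.34 (SE, adjusted p = 0.0727) and Pygb at 0.69 ± 0.18 (SE, adjusted p = 0.0727) nearest to it. DESeq2 called 3 members lower, and 4.16% of genes.

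PMN-MDSC from spleen had 1 member that rose with treatment, at a background of 6.1% of 7261 genes. Gpi1 went from 571, 847, 829.6 and 695 CPM to 1714, 1568 and 2226 CPM, a log2 change of 1.34 ± 0.22 (SE, adjusted p = 0.00881), and every treated library held more than every untreated one, where 26.3% of genes had groups apart. Ldha had 423, 244 and 417 CPM with and 142, 292, 211 and 176 CPM without treatment, a change of 0.84 ± 0.30 (SE, adjusted p = 0.114) that reached 1.08 (adjusted p = 0.0414) without untreated library 2. Pfkp was the other member with groups that did not overlap, lower with treatment at 61.2, 78.8 and 82.2 CPM against 103, 88.8, 97.4 and 118 CPM, and its change of −0.44 ± 0.18 (SE, adjusted p = 0.149) did not pass. The remaining 7 members had adjusted p-values of 0.277 to 0.985. Of 9 paralogs and remaining steps, Hk1 alone passed and rose by 0.71 ± 0.19 (SE, adjusted p = 0.0450). In the pentose phosphate pathway 1 of 8 rose, namely G6pdx, which opens that branch from the substrate of Gpi1, by 1.01 ± 0.26 (SE, adjusted p = 0.0380). Of genes of pyruvate entry 1 of 8 rose and 1 fell, namely Pdk3 (0.93 ± 0.25 (SE, adjusted p = 0.0448)) and Pdk1 (−1.37 ± 0.32 (SE, adjusted p = 0.0285)). Over all genes 5.52% fell. Of 9 hypoxia targets 2 fell, led by P4ha1 (−1.80 ± 0.36 (SE, adjusted p = 0.0178)), and of 7 hypoxia regulators 1 fell, Egln3 (−1.29 ± 0.35 (SE, adjusted p = 0.0499)). In glycogen metabolism 2 of 12 rose, led by Gyg, which primes glycogen (2.08 ± 0.30 (SE, adjusted p = 0.00500)), and 1 fell. Neutrophil markers in these groups summed to 47218 to 96073 CPM with and 25366 to 48431 CPM without treatment, and macrophage markers to 90.7 to 227 and 476 to 1387 CPM and erythroid markers to 0 to 4.13 and 60.8 to 169.7 CPM, and their part in the change of Gpi1 was not tested.

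In PMN-MDSC from tumor 0 of 10 members passed in edgeR's test, where 2.29% of 8308 genes rose and 1.07% fell. At an unadjusted p under 0.05 there were 5 members, as for 18.2% of genes, and DESeq2 called 2, both higher, where 4.44% of genes were. The estimates were above 0 for 9 of 10, with a median of 0.41 against 0.01 over all genes, Hk2 being the exception at −0.34 ± 0.21. Of all genes tested, 50.7% had estimates above 0. For Tpi1, with 152, 148, 195 and 234 CPM in treated and 121, 100.1, 123 and 112 CPM in untreated libraries, the change was 0.60 ± 0.18 (SE, adjusted p = 0.105). For Aldoa it was 0.52 ± 0.17 (SE, adjusted p = 0.1398) and for Ldha 0.50 ± 0.20 (SE, adjusted p = 0.220). In these 3 the treated libraries lay above the untreated ones, without passing, and 12% of genes had groups apart. Of the genes around the members Slc16a1, a lactate and pyruvate transporter, fell, with −1.40 ± 0.31 (SE, adjusted p = 0.0363). None of the 10 paralogs and remaining steps tested passed, Hk3 coming nearest at 0.69 ± 0.17 (SE, adjusted p = 0.0578). Neutrophil markers summed to 4255 to 10692 CPM in treated and 1401 to 5182 CPM in untreated libraries.

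**Figure D5:**
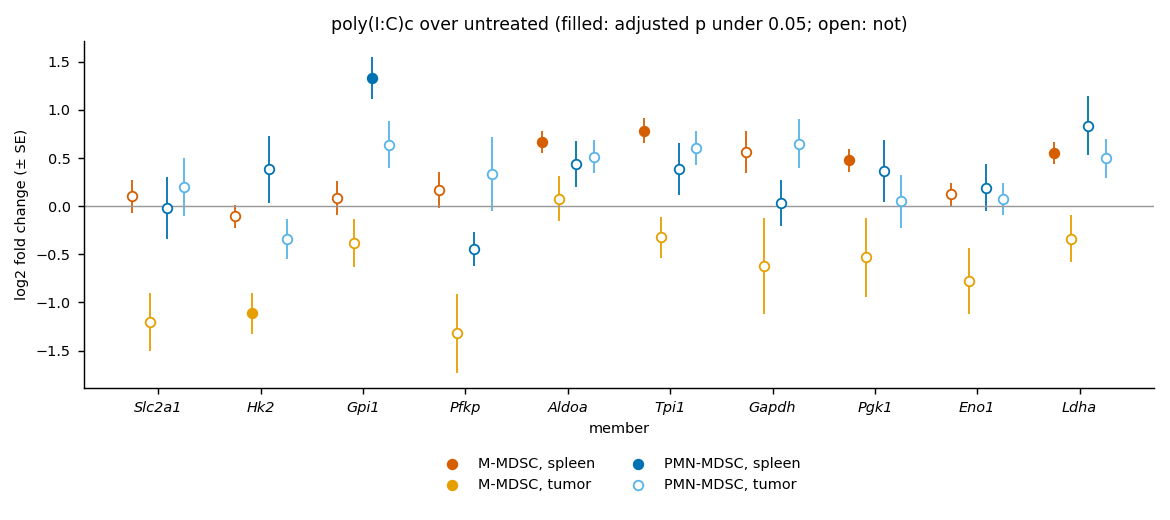
Log2 fold change of poly(I:C)c over no treatment for each member, with its standard error, in M-MDSC from spleen (dark orange) and tumor (light orange) and PMN-MDSC from spleen (dark blue) and tumor (light blue); filled points passed an adjusted p under 0.05. In M-MDSC the spleen points lie at or above those of the tumor for every member, with Aldoa, Tpi1, Pgk1 and Ldha filled in spleen and Hk2 in tumor.

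The interaction of treatment with compartment asked whether the treatment changes differ between tumor and spleen. In M-MDSC the term was below 0 for all 10 members, a sign that stands for a lower change in tumor than in spleen. Of these 1 passed, where 0.561% of 8730 genes did. Over all genes tested, 52.5% had a term above 0. Tpi1 had −1.08 ± 0.23 (SE, adjusted p = 0.0458), having risen in spleen and been −0.32 ± 0.21 in tumor. The call was lost on leaving out 13 of the 15 libraries in turn, at adjusted p-values of 0.0549 to 0.108. Hk2 (−0.98 ± 0.23 (SE, adjusted p = 0.0553)), Slc2a1 (−1.28 ± 0.35 (SE, adjusted p = 0.102)) and Ldha (−0.87 ± 0.26 (SE, adjusted p = 0.142)) did not pass. Without treated tumor library 1 the count became 7, where 1.54% of genes passed below 0, with Hk2 at −1.13 (adjusted p = 0.0201), Slc2a1 at −1.69 (adjusted p = 0.0112) and Ldha at −1.11 (adjusted p = 0.0283) among them. That library held the fewest macrophage and the most monocyte marker counts of the treated M-MDSC libraries from tumor, and the part of this in the count was not tested. In PMN-MDSC 0 of 10 terms passed by edgeR, with adjusted p-values of 0.370 to 0.938 where 3.5% of 8047 genes passed, and 0 at an unadjusted p under 0.05, where 16.5% of genes did.

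Between the cell types, PMN-MDSC from spleen of untreated mice held more of 5 members than M-MDSC from spleen at a background of 30.9% of 8579 genes higher in PMN-MDSC. Slc2a1 was higher by 1.61 ± 0.22 (SE, adjusted p = 0.000190) on the log2 scale, Gpi1 by 1.07 ± 0.14 (SE, adjusted p = 0.000187) and Aldoa by 0.92 ± 0.17 (SE, adjusted p = 0.00102), and in each the PMN-MDSC libraries lay above those of M-MDSC, where 58.9% of genes had groups apart. Gapdh was higher by 1.91 ± 0.20 (SE, adjusted p = 4.14e-05) in its row and 0.62 ± 0.21 (SE, adjusted p = 0.0250) with copies. Pgk1, at 0.60 ± 0.20 (SE, adjusted p = 0.0222), had overlapping groups, and its call was lost with the copies (0.49 ± 0.21 (SE, adjusted p = 0.0662)) and without PMN-MDSC library 3 or M-MDSC library 1, 2 or 4 (adjusted p = 0.0530 to 0.0610). Hk2 had 0.36 ± 0.15 (SE, adjusted p = 0.0642), and 0.45 (adjusted p = 0.0181) without PMN-MDSC library 1 and 0.40 (adjusted p = 0.0419) without library 2, while leaving out library 1 also brought Ldha to 0.60 (adjusted p = 0.0130). Of the paralogs, Slc2a3 was higher in PMN-MDSC by 4.73 ± 0.27 (SE, adjusted p = 1.76e-06), Slc2a6 by 2.45 ± 0.34 (SE, adjusted p = 0.000206) and Hk3 by 2.32 ± 0.17 (SE, adjusted p = 5.32e-06), estimates above those of the members, while Hk1 was higher by 0.49 ± 0.15 (SE, adjusted p = 0.0154) and Ldhb was lower, at −3.03 ± 0.40 (SE, adjusted p = 0.000164). Genes of the tricarboxylic acid cycle were lower in PMN-MDSC in 11 of 17 and higher in 1, where 33.4% of all genes were lower. Erythroid markers summed to 60.8 to 169.7 CPM in PMN-MDSC and 18.7 to 55.6 CPM in M-MDSC. Neutrophil markers summed to 25366 to 48431 and 3493 to 8649 CPM and monocyte markers to 639 to 1214 and 3031 to 4071 CPM. None of these overlapped, and their part was not tested.

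In tumors of untreated mice none of the 5 members that had passed in spleen passed. Every member had a lower estimate in PMN-MDSC than in M-MDSC, and 3 passed, where 5.73% of 7623 genes were lower. Of all genes tested, 48.8% had estimates above 0, that is, higher in PMN-MDSC. Eno1 had a difference of −0.78 ± 0.15 (SE, adjusted p = 0.00507), with 411, 316, 377 and 345 CPM against 817, 592, 656 and 559 CPM, and −0.69 ± 0.15 (SE, adjusted p = 0.0100) with copies. Tpi1 had −0.60 ± 0.17 (SE, adjusted p = 0.0300) and Pfkp −0.51 ± 0.15 (SE, adjusted p = 0.0483). These last calls were fragile, since Pfkp lost its call without any 1 of 6 of the 8 libraries (PMN-MDSC 2, 3 and 4 and M-MDSC 1, 2 and 3, adjusted p = 0.0631 to 0.146) and Tpi1 without any 1 of the first 5 of these (adjusted p = 0.0568 to 0.0960), and the count of members ranged from 1 to 5 over the omissions. Without PMN-MDSC library 1, Pgk1 reached −0.87 (adjusted p = 0.0374), and without M-MDSC library 4 the row of Gapdh reached −1.22 (adjusted p = 0.00618) and Ldha −0.52 (adjusted p = 0.0463). Slc2a3 kept the direction it had in spleen, higher in PMN-MDSC by 3.84 ± 0.54 (SE, adjusted p = 0.00143), as did Slc2a6 (1.12 ± 0.25 (SE, adjusted p = 0.0119)), while Pkm, higher in PMN-MDSC in spleen (0.91 ± 0.19 (SE, adjusted p = 0.00226)), was lower in tumor (−0.63 ± 0.16 (SE, adjusted p = 0.0207)). Beside this, macrophage markers summed to 9330.2 to 13299 CPM in PMN-MDSC and 3451 to 8229 CPM in M-MDSC, neutrophil markers to 1401 to 5182 and 229.9 to 799.8 CPM and monocyte markers to 1664 to 2211 and 3679 to 4281 CPM, each without overlap, and their part was not tested.

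Bulk tumor of untreated mice held less of all 10 members, in CPM, than either MDSC type sorted from tumor, at backgrounds of 33.3% of 11138 genes lower against PMN-MDSC and 31% of 11022 against M-MDSC. The median log2 difference of the members was −1.79 against PMN-MDSC, where all genes tested had 0.09, and −1.998 against M-MDSC, where they had 0.17. Pfkp had 39.6, 20.3, 23.98 and 26.1 CPM in bulk tumor, and its log2 difference was −3.50 ± 0.23 (SE, adjusted p = 1.43e-07) against M-MDSC and −3.06 ± 0.21 (SE, adjusted p = 1.29e-07) against PMN-MDSC, the largest of the members in both. Slc2a1 had 59.9, 35.3, 42.6 and 36.4 CPM, with −2.80 ± 0.23 (SE, adjusted p = 7.51e-07) and −2.67 ± 0.20 (SE, adjusted p = 3.69e-07). Hk2 had 300.1, 226, 223 and 117 CPM, with differences of −0.98 ± 0.25 (SE, adjusted p = 0.00438) and −0.90 ± 0.25 (SE, adjusted p = 0.00717), the latter with overlapping groups. Pgk1 was lower in its row, at −1.19 ± 0.25 (SE, adjusted p = 0.00117) and −0.71 ± 0.25 (SE, adjusted p = 0.0259), and with its copies neither difference passed (−0.67 ± 0.36 (SE, adjusted p = 0.117) and −0.29 ± 0.27 (SE, adjusted p = 0.354)). Against PMN-MDSC it was also lost without bulk library 2, 3 or 4 or PMN-MDSC library 1 (adjusted p = 0.0592 to 0.0833). Gapdh and Eno1, with copies, were lower at −2.24 ± 0.29 (SE, adjusted p = 3.57e-05) and −2.48 ± 0.20 (SE, adjusted p = 7.78e-07) against M-MDSC and −2.09 ± 0.24 (SE, adjusted p = 9.74e-06) and −1.83 ± 0.18 (SE, adjusted p = 3.41e-06) against PMN-MDSC. The paralogs were split, with 6 of 13 tested higher and 7 lower in bulk tumor than in M-MDSC, where 38.2% of all genes were higher. Hk1 (0.69 ± 0.24 (SE, adjusted p = 0.0240)) and Pfkm (2.17 ± 0.47 (SE, adjusted p = 0.00142)) were higher, and Hk3 (−5.03 ± 0.31 (SE, adjusted p = 1.03e-07)) and Pkm (−1.97 ± 0.19 (SE, adjusted p = 2.81e-06)) lower. Slc16a1 was higher in bulk tumor, at 140.4 ± 35.8 CPM, against 16.7 ± 4.59 CPM in M-MDSC, whereas Slc16a3 had 2.76 ± 1.20 and 232 ± 71.3 CPM (SD, n = 4). Bulk tumor was lysed whole and the MDSC went through dissociation and sorting, and preparation and cell type cannot be told apart in this comparison.

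Across the 30 MDSC libraries, log2(CPM + 1) of the members was correlated pair by pair. Pearson's r was positive for 43 of the 45 pairs, with a median of 0.56, from −0.26 for Gpi1 with Tpi1 to 0.81 for Pgk1 with Ldha. After the mean of each group was subtracted, all 45 pairs were positive, with a median of 0.54 and a highest value of 0.79 for Pgk1 with Eno1. These are descriptions over libraries that share groups, scaling and depth. The share of positive pairs among other genes was not computed, so these values do not set the members apart from other genes. The genes closest to the mean of the members over the 30 libraries, among 8385 with a mean of at least 10 CPM, were Sde2 (r = 0.879), Pgam1 (r = 0.879), Tmem189 (r = 0.862), Gm7336 (r = 0.855) and Alkbh5 (r = 0.854). Gm7336 is a processed copy of Gapdh, and Pgam1 encodes the glycolytic step between Pgk1 and Eno1.

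At the stricter threshold of a 2-fold change with an adjusted p under 0.001, 7 members stood out in untreated M-MDSC between tumor and spleen (Slc2a1, Hk2, Pfkp, Tpi1, Gapdh, Pgk1 and Ldha), where 8.6% of genes did, and Pgk1 was not past it with its copies. In untreated PMN-MDSC Pfkp and Tpi1 remained, at 21.7% of genes, and in treated PMN-MDSC Tpi1, at 13%. None of the members remained in treated M-MDSC (0.188%). Between the cell types Slc2a1, Gpi1 and Gapdh remained in spleen (23.2%) and none in tumor (1.65%), and Gapdh was not past it with its copies. Against bulk tumor 7 remained for PMN-MDSC (40.1%) and 8 for M-MDSC (41.9%), all lower in bulk tumor. The shares at this threshold count genes in either direction. Lower in bulk tumor were 2362 of 11138 genes against PMN-MDSC and 2162 of 11022 against M-MDSC. The interaction of compartment with cell type kept Slc2a1, Gpi1 and Gapdh (6.92%), and again Gapdh was lost with its copies. No member remained with treatment in PMN-MDSC from spleen (0.0413%) or tumor (0.241%), in M-MDSC from spleen (2.47%) or tumor (0.012%), or in the treatment interaction of PMN-MDSC (0%) or M-MDSC (0.0115%).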

How the data were processed

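RNA was sequenced from sorted MDSC and bulk tumor lysates with a stranded total RNA kit without molecular identifiers, so that counts are not independent molecules. The authors aligned reads to GRCm38 with ContextMap on BWA and counted fragments per gene and strand with featureCounts (Subread 1.4.6-p3 per the submitters' processing notes) against a Gencode annotation, and the deposited table holds these raw counts, without normalization. Of 35 libraries 34 were used, since 1 held 10 counts. Columns were assigned to groups, not to mice, through their names. Library totals ran from 793070 to 8886115, and total counts limit the precision of low genes. No library pair within a group agreed within sampling noise.

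Each comparison was fitted on its own libraries with edgeR 4.0.16 (R 4.3.3, limma 3.58.1), by the quasi-likelihood F-test with TMM scaling and robust dispersion, leaving out genes that averaged under 25 counts. p-values were two-sided and adjusted over all genes tested by Benjamini-Hochberg, with calls at an adjusted p under 0.05. The standard error was taken as the log2 fold change divided by the square root of F. CPM used TMM over 34 libraries, and FPKM the summed exon length from GENCODE M21 for 53274 of 53379 identifiers. Copies of members were found by shared stretches of 50 bases. The study itself had used DESeq2 with an adjusted p under 0.001 and a 2-fold change. Alternatives were DESeq2 1.42.0, RLE scaling, no count filter, 1 fit over 34 libraries, the stricter threshold, the counts of copies added, and each library left out. Copies found by sequence were added as an alternative after seeing the data. The pipeline was tested on simulated data with known changes. Promoters came from RefSeq, in which all 10 members matched by symbol, and figures were drawn with matplotlib 3.10.9.

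The members and gene lists were chosen with earlier results of these data known. Genes named in the text are the members, the paralogs of the same reactions, and in the untreated tumor against spleen and treatment comparisons the gene of each list with the smallest adjusted p, plus the 5 genes most like the mean of the members. Bsg, Mpc1 and other list genes enter only the counts, while Hif1a, Egln3, Vegfa, Idh2, Pdk1, Pdk3, Pfkfb3, Pfkfb4, Txnip, Slc16a1, Slc16a3 and Slc16a7 are named in a comparison beyond this rule where they passed or serve as its counterpart, chosen after their values were seen.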

Additional observations from a re-analysis of the deposited data

Results flagged for a closer look

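In untreated M-MDSC from tumor, 1 library lay far above the other 3 for a pair of members, with 356.5 CPM of Pfkp and 583 CPM of Aldoa. These were the only outlying libraries in 70 groups of 4 libraries tested over the 10 members, where chance alone flags about 1 group in 20. Without that library the tumor against spleen differences of Pfkp and Aldoa in M-MDSC still passed. The compartment difference of untreated mice was smaller in PMN-MDSC than in M-MDSC, or opposite to it, by the interaction test for Slc2a1 (−1.78), Gpi1 (−1.43), Aldoa (−1.04), Gapdh (−2.86), Pgk1 (−1.12), Eno1 (−0.95) and Ldha (−0.85), on the log2 scale. With copies the term was −0.86 for Gapdh and −0.96 for Pgk1, where the latter no longer passed (adjusted p = 0.0766), and Pgk1 and Ldha were also lost without single libraries. PMN-MDSC libraries from tumor also held fewer neutrophil and more macrophage marker counts than those from spleen, and the part of this in the term was not tested. The treatment change of Tpi1 in M-MDSC differed between tumor and spleen by −1.08 on the log2 scale (adjusted p = 0.0458), a call lost without any 1 of 13 of the 15 libraries.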

How the results depend on the processing

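No direction of a member that passed was reversed under any alternative. Log2 fold changes of members that passed, recomputed under the alternatives, stayed past the threshold 866 times and were lost 71 times, in the same direction. With DESeq2 the count of members past the threshold rose from 0 to 2 for treatment in PMN-MDSC from tumor, from 1 to 3 for treatment in M-MDSC from tumor, from 2 to 5 for treated M-MDSC from tumor against spleen, and from 1 to 5 for the interaction of treatment with compartment in M-MDSC. With RLE scaling that interaction had 2. Without the count filter the treatment counts were 3 in M-MDSC from tumor and, for PMN-MDSC, 2 in spleen and 1 in tumor, with 5 for PMN-MDSC against M-MDSC in tumor and 3 for the interaction in M-MDSC. In 1 fit over 34 libraries the treatment counts were 2 in PMN-MDSC from spleen, 2 in M-MDSC from spleen and 4 in M-MDSC from tumor. The stricter threshold left 0 of 1, 0 of 4 and 0 of 1 in the treatment comparisons of spleen PMN-MDSC, spleen M-MDSC and tumor M-MDSC, 2 of 5 for tumor against spleen in untreated and 1 of 4 in treated PMN-MDSC, 0 of 2 in treated M-MDSC, 3 of 5 and 0 of 3 for PMN-MDSC against M-MDSC in spleen and tumor, 0 of 1 for the treatment interaction in M-MDSC and 3 of 7 for the interaction of compartment with cell type. The cause of these moves was not tested, beyond the stricter rule of the last.

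Leaving out each library in turn gave counts of 1 to 2, 0 and 3 to 4 for treatment in spleen PMN-MDSC, tumor PMN-MDSC and spleen M-MDSC, and 0 to 4 in tumor M-MDSC. For tumor against spleen they were 5 to 6 in untreated PMN-MDSC, 10 in untreated M-MDSC, 3 to 4 in treated PMN-MDSC and 1 to 2 in treated M-MDSC. PMN-MDSC against M-MDSC gave 4 to 7 in spleen and 1 to 5 in tumor, bulk tumor 9 to 10 against PMN-MDSC and 10 against M-MDSC, and the interactions 0, 0 to 7 and 5 to 10 (treatment in PMN-MDSC, treatment in M-MDSC, compartment with cell type).

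Counts over all genes moved too. In the order higher and lower, treatment in PMN-MDSC from spleen had 443 and 401 genes by edgeR, 693 and 661 by DESeq2, 726 and 1092 without the count filter and 722 and 975 in 1 fit over 34 libraries. Treatment in PMN-MDSC from tumor had 190 and 89, then 369 and 244 by DESeq2 and 526 and 338 without the filter. In M-MDSC it had 152 and 89 in tumor, then 449 and 348 by DESeq2, 657 and 407 without the filter and 493 and 320 in 1 fit, and 942 and 791 in spleen, then 756 and 480 in 1 fit. Treated M-MDSC from tumor against spleen had 461 and 69, then 812 and 320, 1360 and 612, and 934 and 422 (DESeq2, no filter, 1 fit). PMN-MDSC against M-MDSC in tumor had 553 and 437, then 996 and 662 without the filter and 415 and 225 in 1 fit. The treatment interaction had 255 and 27 in PMN-MDSC, then 396 and 105, 583 and 93, and 438 and 79, and 20 and 49 in M-MDSC, then 108 and 199, 310 and 349, and 56 and 90 (DESeq2, no filter, 1 fit). Without the filter the genes higher also rose for tumor against spleen from 2346 to 3541 in untreated PMN-MDSC, from 1302 to 2124 in untreated M-MDSC and from 2267 to 3886 in treated PMN-MDSC, and for bulk tumor from 4025 to 6205 against PMN-MDSC and from 4210 to 6949 against M-MDSC, and the interaction of compartment with cell type went from 1640 and 1445 to 1272 and 1739. RLE scaling lowered the median interaction term of compartment with cell type over all genes by 0.16, which is small beside the terms that passed. No paired analysis was possible because the columns of the count table carry no mouse number. This limit is that of the labels alone. The running numbers of the columns follow the order of the sample titles, and a match to mice by that order was not made. Whether pairing by mouse would change the tumor against spleen and cell type comparisons was therefore not tested. Low counts limit Gapdh, Pgk1 and Tpi1 the most, and the row of Gapdh cannot stand for the gene.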
